A study of Mus musculus with 28 samples.

Results

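Liver transcription factors and metabolic nuclear receptors were followed in treated mice: Hnf4a, Cebpa, Ppara, Nr1i3, Nr1h4, Nr0b2, Nr5a2, Nr2f6, Nr1h2 and Nr3c1. They were chosen by name, as the hepatocyte transcription factors and metabolic nuclear receptors of a focused 2-colour array, on which 10 of 120 gene probes (118 genes) belong to them, 1 probe each. The array study asks what acyclic nucleoside phosphonates, antiviral nucleotide analogs, do to cytochrome P450 expression in mouse liver. All mice were female C57BL/6, 8 to 10 weeks old, and were injected intraperitoneally over 3 days. A group of 5 received adefovir dipivoxil at 25 mg/kg and another 5 received tenofovir disoproxil at 25 mg/kg. The positive control, 4 mice, received phenobarbital at 60 mg/kg plus a single 80 mg/kg dose of β-naphthoflavone on day 2. Control mice received saline, and their liver RNA was pooled as the reference on every array (10 animals in the sample labels, 5 in the treatment protocol). The mice were killed on day 4, 24 hours after their last dose. Antiviral mice had 2 arrays each with the dyes exchanged, single positive-control mice had 1, and 4 further arrays carried pooled positive-control RNA. The arrays carried whole-liver RNA, in which fewer cells of a type and less RNA per cell cannot be told apart.

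Nuclear receptors are transcription factors that a small lipophilic ligand can switch on or off, and most of them bind DNA next to a partner. In hepatocytes, Hnf4a and Cebpa maintain the differentiated programme, whereas Nr1i3 (CAR), Nr1h4 (FXR), Ppara and Nr1h2 (LXR beta) answer to drugs, bile acids, fatty acids and oxysterols. Phenobarbital is the classic activator of CAR in rodent liver, and β-naphthoflavone is a ligand of the aryl hydrocarbon receptor, a factor outside the nuclear receptor family.

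The promoters of Cebpa, Ppara and Nr1h4 are shown because these members had the lowest values when the positive control was set against the antivirals. Each window holds 300 bases around the gene's start, most of them upstream, 5′ to 3′ on the strand of the gene, from RefSeq on assembly GRCm38.p6. Cebpa lies at chr7:35119043-35119342 (+), Ppara at chr15:85735526-85735825 (+) and Nr1h4 at chr10:89506609-89506908 (-). Capitals mark matches, on both strands, to the nuclear receptor element AGGTCA, the aryl hydrocarbon receptor core GCGTG and the CCAAT box, and no match overlapped another.
Cebpa: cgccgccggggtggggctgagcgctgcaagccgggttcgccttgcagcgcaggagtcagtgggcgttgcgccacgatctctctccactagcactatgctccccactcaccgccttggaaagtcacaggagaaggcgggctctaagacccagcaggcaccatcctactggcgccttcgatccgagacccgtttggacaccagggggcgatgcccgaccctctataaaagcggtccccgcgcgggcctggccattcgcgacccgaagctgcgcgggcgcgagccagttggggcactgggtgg
Ppara: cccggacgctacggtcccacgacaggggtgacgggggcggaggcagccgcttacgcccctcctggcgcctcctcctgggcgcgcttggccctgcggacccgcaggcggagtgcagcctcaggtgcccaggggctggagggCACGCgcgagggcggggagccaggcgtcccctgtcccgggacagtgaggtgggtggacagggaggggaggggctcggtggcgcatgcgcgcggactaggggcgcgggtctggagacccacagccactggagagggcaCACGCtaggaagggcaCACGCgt
Nr1h4: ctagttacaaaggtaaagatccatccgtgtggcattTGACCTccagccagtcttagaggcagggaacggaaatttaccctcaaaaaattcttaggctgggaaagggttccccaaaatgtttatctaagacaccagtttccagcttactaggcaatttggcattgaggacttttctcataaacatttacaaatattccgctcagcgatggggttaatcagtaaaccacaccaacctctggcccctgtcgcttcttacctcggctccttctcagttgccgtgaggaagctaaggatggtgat
The Cebpa window had 0 matches to any of these motifs, the Ppara window had 3 to the GCGTG core and the Nr1h4 window had 1 to AGGTCA. Among all 32851 promoter windows of the same 300 bases, 16.3% held AGGTCA, 32.4% held GCGTG and 37.4% held CCAAT at least once.

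Of the 10 members, 7 stood above background in at least 1 channel on most of the 28 arrays, against 67 of all 120 probes (55.8%). A spot counted as above background when it exceeded the local background by 2 background SDs. Cebpa, a leucine zipper factor of hepatocyte differentiation, and Nr1h4, the bile acid receptor, were above background on 28 of 28 arrays. Hnf4a, the nuclear receptor that drives many hepatocyte genes, followed with 26 arrays. Nr1i3, Nr2f6, a repressing orphan receptor of the COUP-TF family, and Nr5a2, a monomeric receptor that activates bile acid synthesis genes, each had 25. Ppara, the fatty acid receptor that turns on fat oxidation, had 22.

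The other 3 members were below background almost everywhere. Nr1h2, an oxysterol receptor, was above it on 1 of 28 arrays. Nr0b2 (SHP), a corepressor that FXR induces, and Nr3c1, the glucocorticoid receptor, were above it on 0 of 28. Their ratios are therefore given below only as ranges, and a change in them was not detectable at these signals.

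In the saline pool itself, read in Cy3 on the 10 antiviral arrays where it carried that dye, the Cebpa spots exceeded background by 14.3 to 38.9 background SDs with a median of 24.5. Nr1h4 exceeded it by 9.23 to 38.1 SDs with a median of 16.2. Ppara exceeded it by 2.20 to 5.95 SDs with a median of 3.85, Nr5a2 by 2.03 to 5.13 with a median of 3.68 and Nr2f6 by 2.07 to 4.62 with a median of 3.20. The ratios of these 3 members rest on little signal, and treated Nr5a2 was above background in Cy5 on 0 of 10 antiviral arrays. Signals of different probes do not rank the genes by RNA amount. All 7 detected members were above background in saline Cy3 on 10 of 10 such arrays, whereas in saline Cy5 the count fell to 4 of 10 for Nr5a2 and 6 of 10 for Ppara.

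Arrays of single positive-control mice stood apart. Their treated RNA was always in Cy3, their saline RNA was in Cy5, and the file headers mark that Cy5 channel as bad on 4 of 4 arrays. For 9 of the 10 members the saline channel was below background on all 4 of these arrays, and for Cebpa it was above on 1. The treated Cy3 channel of the same arrays was above background on 4 of 4 for Cebpa, Hnf4a, Nr1h4, Nr1i3, Nr5a2 and Nr2f6 and on 2 of 4 for Ppara. The lower or upper bounds that such a channel allows were under 1 for all 6 members where a bound could be computed, so log2 values of the positive control are printed with no fold.

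**Figure D1:**
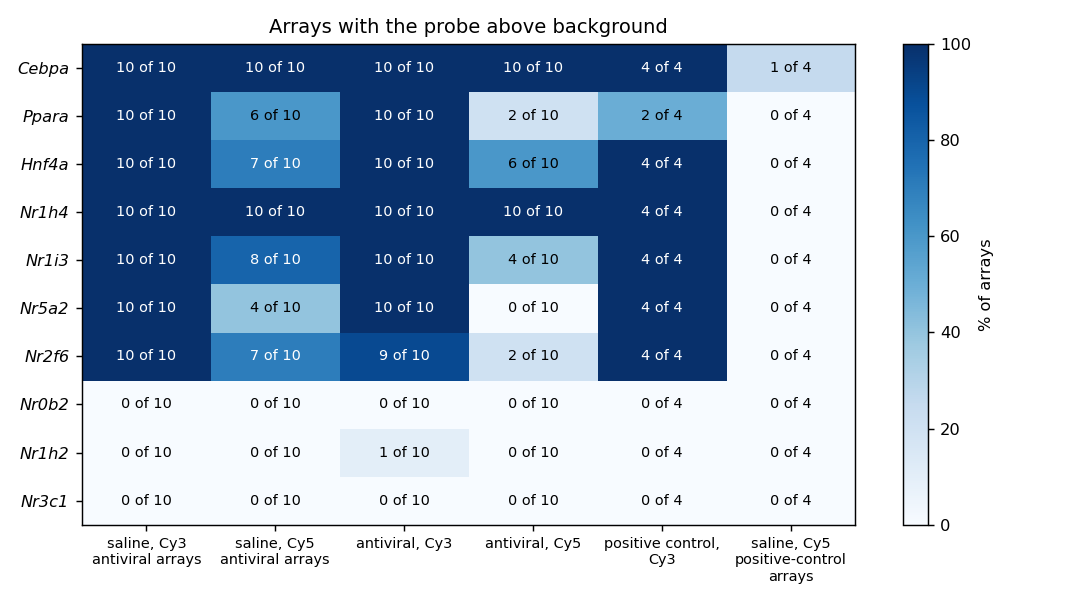
Number of arrays on which each member's probe (rows) was above background in each channel and kind of array (columns), with the colour giving the percentage of arrays. The 7 upper members were above background on 9 or 10 of 10 antiviral Cy3 arrays, and the saline Cy5 channel of the positive-control arrays was at 0 of 4 for every member but Cebpa.

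Neither antiviral changed a member past the test. Values here are log2 ratios of treated over saline, 1 per mouse after averaging its 2 dye-exchanged arrays. Over all 120 probes, r between the 2 arrays of a mouse ran from -0.11 to 0.68, with a median of 0.27. Values of single mice are therefore noisy. The test was limma's moderated test over 14 mice, with Benjamini-Hochberg adjustment over all 120 probes at 0.05. After adefovir dipivoxil 0 of 10 members were called, where 1.67% of all probes were called (2 of 120). After tenofovir disoproxil 0 of 10 were called as well, again against 1.67% of all probes (2 of 120). The saline pool is a single control sample, so these tests contain the spread among treated mice and not that among saline mice.

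The median of the 10 members, with the 3 below background among them, was 0.07 with adefovir dipivoxil, with 8 of 10 above 0, against a median of -0.00 and 47.5% above 0 over all probes. With tenofovir disoproxil it was 0.11, with 9 of 10 above 0, against 0.02 and 60.0%. Both groups were compared with the same saline pool, and no test of the members as a group was made. When both antivirals were fitted together 0 of 10 members were called, where 8.33% of all probes were (10 of 120), and the smallest adjusted p of a member by limma was 0.109.

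Ppara had the highest mean among the members under both compounds. In the adefovir mice its log2 ratios were 0.02, 0.15, 0.08, 0.31 and 0.44. In the tenofovir mice they were -0.21, 0.17, 0.31, 0.72 and 0.35. It was thus above saline in 9 of 10 antiviral mice, and the compounds overlapped. The mean of both antivirals was 0.23 (SE 0.0816, 95% CI 0.06 to 0.41), with an unadjusted p of 0.0127 and an adjusted p of 0.109 by limma, so the value did not pass. It passed under 4 of 12 alternative ways of processing, and its sign was kept in all 12, with values from 0.13 to 0.48. Among the 4 were centring on calibration spots (0.48) and arrays with the treated RNA in Cy5 alone (0.33, adjusted p = 0.00939). On those Cy5 arrays treated Ppara was above background on 2 of 10. It did not pass on arrays with treated RNA in Cy3 (0.13, adjusted p = 0.229), where it was above on 10 of 10.

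Nr1i3, the receptor through which phenobarbital induces Cyp2b genes, had the next smallest p over both antivirals. Its log2 ratios were -0.02, 0.01, 0.12, 0.16 and 0.48 with adefovir dipivoxil. They were -0.07, 0.10, -0.00, 0.34 and 0.24 with tenofovir disoproxil. In 7 of 10 mice it was above saline, and adefovir mouse 5 stood above the rest. In that mouse treated Nr1i3 in Cy3 was 474 intensity units over background, against 31 to 99 in the other adefovir mice. That array was brighter for other members too, with treated Cebpa at 1248 units against 91 to 410 in the other adefovir mice. In background SDs, treated Nr1i3 was at 7.35 on it, within the 4.90 to 8.81 of the others. The mean over both antivirals was 0.13 (SE 0.0573, 95% CI 0.01 to 0.26, adjusted p = 0.173 by limma), and did not pass. With treated RNA in Cy3 the mean was 0.02, with 5 of 10 mice above 0, and with treated RNA in Cy5 it was 0.25, with 10 of 10 above 0 (adjusted p = 0.0114). Treated Nr1i3 was above background on 4 of 10 of those Cy5 arrays, and on 10 of 10 of the Cy3 arrays. Nr1i3 also passed with arrays as units and the mouse as a random block (adjusted p = 0.0462), in the series table (0.27, adjusted p = 0.0147) and with centring on calibration spots (0.37, adjusted p = 0.0378).

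Hnf4a showed the same spread around a small positive mean. Its log2 ratios were -0.04, 0.37, -0.00, 0.13 and 0.10 with adefovir dipivoxil. With tenofovir disoproxil they were -0.35, 0.16, 0.40, 0.30 and 0.36. Tenofovir mouse 1 lay below the other tenofovir mice. The mean over both was 0.14 (SE 0.0749, adjusted p = 0.266 by limma). Cebpa averaged 0.11 over both antivirals (SE 0.0839, adjusted p = 0.461), with mice from -0.34 to 0.40 on both sides of saline.

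Within the bile acid circuit, Nr1h4 averaged 0.09 over both antivirals (SE 0.0594, adjusted p = 0.394 by limma) and was above saline in 8 of 10 mice. Its partner Nr0b2 ranged from -0.08 to 0.18 and Nr1h2 from -0.05 to 0.11, from signals below background apart from Nr1h2 in the treated channel of 1 array. Nr3c1 ranged from -0.16 to 0.14. Nr5a2, which acts on the same bile acid genes, had log2 ratios of -0.34, 0.02, -0.21, -0.16 and 0.02 with adefovir dipivoxil. They were 0.30, 0.08, 0.14, 0.02 and 0.03 with tenofovir disoproxil. Hence 3 of 5 adefovir mice lay below saline and all 5 tenofovir mice lay above it, with the groups touching near 0.

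**Figure D2:**
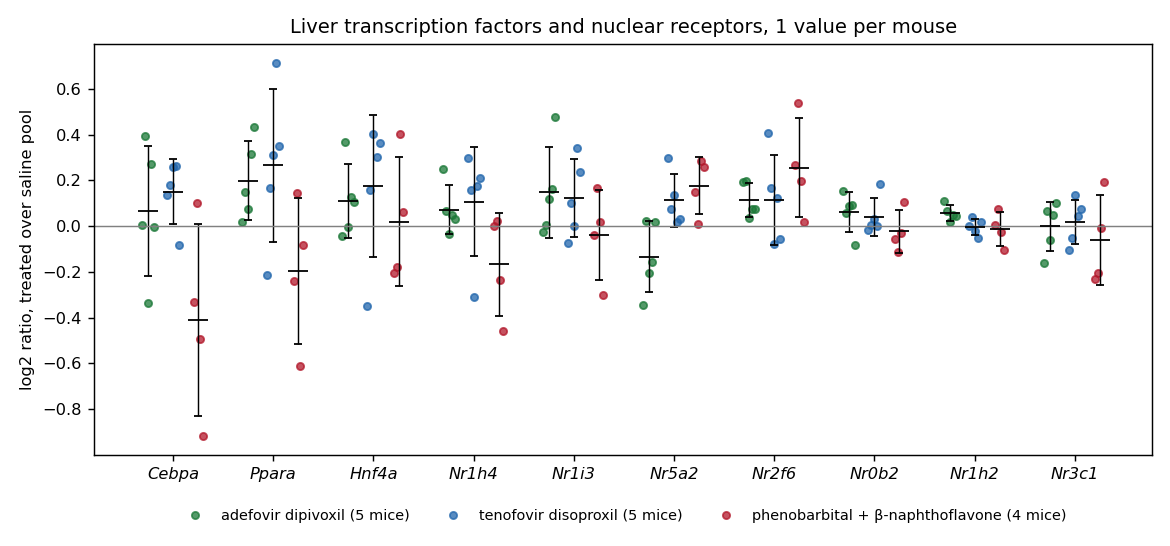
Log2 ratio of treated over pooled saline RNA for each member (x axis), 1 point per mouse, with the group mean and SD in black. The antiviral groups overlap for all 10 members, and the positive control has its lowest points for Cebpa and Ppara.

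Adefovir and tenofovir are both adenine phosphonates on an acyclic side chain, tenofovir with an extra methyl group there, and the prodrugs also differ in their ester groups. As this single pair was given at the same dose and times, the difference between the group means was tested directly, and the saline pool cancels in it. The arrays were not alike in signal. With treated RNA in Cy3, Hnf4a stood 97, 134, 34 and 75 intensity units over background in adefovir mice 1 to 4. It stood 427 units over it in adefovir mouse 5 and 254 to 1599 in the tenofovir mice. The part of this in the differences below was not tested. None of the 10 members differed past the threshold, where 0% of all 120 probes did, 3 of them with an unadjusted p under 0.05. The largest difference was that of Nr5a2, lower with adefovir by 0.25 on the log2 scale (-0.25, SE 0.0877, 95% CI -0.43 to -0.06, unadjusted p = 0.0139, adjusted p = 0.983 by limma). In the deposited series table, centred on each column's median, the same difference was -0.73 and passed (adjusted p = 0.0386 by limma); on scanner values it was between -0.49 and -0.18 under the other alternatives and passed in none.

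For the other members the intervals of adefovir minus tenofovir all included 0. Hnf4a differed by -0.06 (95% CI -0.39 to 0.26), Cebpa by -0.08 (-0.44 to 0.27) and Ppara by -0.07 (-0.42 to 0.28). Nr1i3 differed by 0.03 (-0.22 to 0.27), Nr1h4 by -0.03 (-0.29 to 0.22) and Nr2f6 by 0.00 (-0.22 to 0.23). A missed threshold does not show that the compounds act alike on these genes: differences of up to the interval bounds remain possible.

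The positive control differed from the mean of both antivirals in Cebpa and Ppara, and was not tested against each compound alone. Set against the mean of the antiviral groups, Cebpa fell by 0.52 on the log2 scale (-0.52, SE 0.157, 95% CI -0.86 to -0.18, adjusted p = 0.0159 by limma) and Ppara by 0.43 (-0.43, SE 0.153, 95% CI -0.76 to -0.10, adjusted p = 0.0384). These were 2 of 10 members called, both lower, where 36.7% of all probes were called (44 of 120, with 24 higher and 20 lower). The saline pool cancels in this difference too, although the weak saline channel of the positive-control arrays enters it. After the dye correction the difference equals, by construction, the one between the arrays with treated RNA in Cy3. The error of the dye effect is missing from its SE and adjusted p. A fit on those Cy3 arrays alone needs no dye effect, and both members passed in it too.

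For Cebpa, the log2 ratios of the 4 positive-control mice were -0.33, 0.10, -0.49 and -0.92. The antiviral mice ran from -0.34 to 0.40 with a median of 0.16. Positive-control mice 3 and 4 lay below every antiviral mouse, and mouse 2 lay among them. Against saline alone Cebpa fell by 0.41 (-0.41, SE 0.133, adjusted p = 0.0221 by limma), a call lost without positive-control mouse 1 (adjusted p = 0.0524), mouse 3 (0.0736) or mouse 4 (-0.24, 0.175). Without positive-control mouse 4 the difference from the antivirals was -0.35 and no longer passed (adjusted p = 0.0835), nor did it with arrays centred on their median (-0.30, adjusted p = 0.126).

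For Ppara, the positive-control mice had log2 ratios of -0.24, 0.15, -0.61 and -0.08. The antiviral mice ran from -0.21 to 0.72 with a median of 0.24. Positive-control mice 1 and 3 lay below all antiviral mice, and the other 2 lay within their range. Ppara passed under 13 of 13 alternatives other than leaving out a mouse, with values from -0.39 to -1.50. Among these, the series table needed values from only 2 mice a group. The Cy3 arrays alone and the fit on only the probes above background give the reported value by construction. The treated Cy3 channel alone, described below and chosen after the data were seen, is also among the 13. On the positive-control arrays Ppara was above background on 2 of 4 in the treated channel and 0 of 4 in saline. Ppara failed when 1 of 7 mice was left out in turn: adefovir mouse 2, 4 or 5, tenofovir mouse 5, or positive-control mouse 1, 3 or 4 (adjusted p from 0.0531 to 0.153). Against saline alone it was -0.20 (SE 0.129, adjusted p = 0.235) and did not pass, whereas it passed at -0.52 (adjusted p = 0.00632) with arrays centred on their median, at -1.02 (1.05e-05) with calibration spots and at -0.95 (2.15e-05) with Actb, Gapdh and Ppia.

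Nr1h4 went the same way without passing in this fit. Its log2 ratios in the positive control were 0.00, 0.02, -0.23 and -0.46, and those of the antiviral mice ran from -0.31 to 0.30. Mouse 4 lay below all antiviral mice and the others did not. Its difference from the antivirals was -0.26 (SE 0.111, 95% CI -0.50 to -0.02, adjusted p = 0.0872 by limma). In 20 of all 120 probes (16.7%) the positive-control mice did not overlap the antiviral mice at all, and 0 of the 10 members were among them.

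Because the saline Cy5 channel of the positive-control arrays is marked bad, the treated Cy3 channel was also compared alone, quantile-normalized across the 14 single-animal arrays with treated RNA in Cy3. This comparison was chosen after the data were seen. By it, 5 members differed between positive control and antivirals: Nr1h4 fell by 0.99 (-0.99, SE 0.119, adjusted p = 7.91e-06 by limma), Cebpa by 0.98 (-0.98, SE 0.190, adjusted p = 0.000739), Ppara by 0.88 (-0.88, SE 0.133, adjusted p = 7.79e-05) and Nr1i3 by 0.37 (-0.37, SE 0.135, adjusted p = 0.0420), whereas Nr5a2 rose by 0.45 (SE 0.0979, adjusted p = 0.00183). In all, 48 of 120 probes were called by it, 22 of them higher.

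The Cy3 levels showed the separation mouse by mouse. For Nr1h4 the log2 Cy3 levels of the positive-control mice were 9.06, 9.45, 8.91 and 8.65, and for Ppara they were 7.48, 7.65, 7.35 and 7.29. In both genes all 4 of these mice lay below the lowest of the 10 antiviral mice. For Cebpa 1 of the 4 did so. Hnf4a differed by -0.32 (SE 0.226, adjusted p = 0.284) and Nr2f6 by 0.17 (SE 0.160, adjusted p = 0.484), neither past the threshold. Such levels carry differences in labelling and hybridisation between arrays that a ratio within an array removes, and the part these play was not tested.

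**Figure D3:**
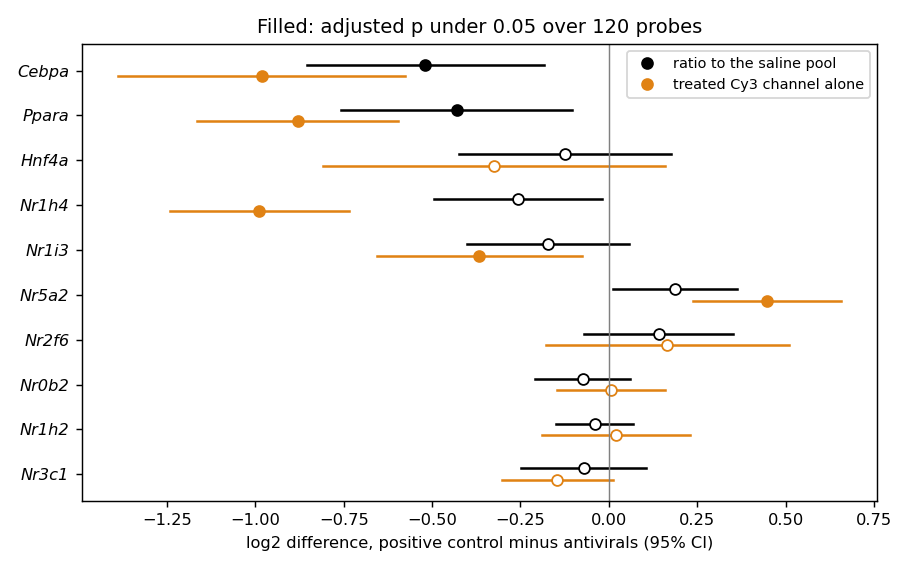
Difference between positive control and antivirals in log2 units with its 95% confidence interval, for each member (rows), from the ratios to saline (black) and from the treated Cy3 channel alone (orange). Filled circles passed at an adjusted p of 0.05: Cebpa and Ppara by both readings, and Nr1h4, Nr1i3 and Nr5a2 by the Cy3 channel alone.

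The 4 arrays with pooled positive-control RNA, whose headers carry no such mark, are given without a test, since the labels do not say whether the pools differ. Cebpa was at -0.16, -0.31, -0.19 and -0.50, lower than saline on 4 of 4. Nr1h4 was at -0.17, -0.28, -0.33 and -0.44, also on 4 of 4. Ppara was at -0.61, -0.21, -0.25 and -0.59, but below background in both channels on all 4. Nr2f6 averaged 0.19 with 0 of 4 negative, but was above background on 1 of 4 in the treated channel and 0 of 4 in saline. Hnf4a averaged 0.07, above background on 2 of 4 in the treated channel and 1 of 4 in saline. The median over all 120 probes on these arrays was -0.00.

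Against saline, the positive control had 2 of 10 members called, Cebpa lower and Nr2f6 higher, where 41.7% of all probes were called (50 of 120, with 26 higher and 24 lower). With arrays centred on their median 2 members were called again, but neither was the same: Cebpa (-0.28, adjusted p = 0.118) and Nr2f6 (0.28, adjusted p = 0.0639) did not pass, and Ppara and Nr5a2 did. The log2 ratios of Nr2f6 were 0.27, 0.54, 0.20 and 0.02 (mean 0.26, SE 0.0833, adjusted p = 0.0223 by limma), all above 0. Its probe had the widest gap between dyes among the members. In the 10 antiviral mice the mean was -0.13 with treated RNA in Cy3, where 1 of 10 was positive, and 0.36 in Cy5, where 10 of 10 were. Without subtraction of this dye effect the positive-control mean of Nr2f6 was 0.01 (adjusted p = 0.955), so the call rests on the correction. It was also lost without positive-control mouse 1 (adjusted p = 0.0658) or mouse 2 (0.16, adjusted p = 0.130), and the value turned to -0.21 with centring on calibration spots and -0.14 with centring on Actb, Gapdh and Ppia.

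Nr5a2 was above saline in 4 of 4 positive-control mice, at 0.15, 0.01, 0.28 and 0.26 (mean 0.18, SE 0.0693, adjusted p = 0.0523 by limma). Its mean passed with arrays centred on their median (0.36, adjusted p = 0.0179) and turned to -0.14 with calibration spots and -0.07 with Actb, Gapdh and Ppia, neither past the threshold. Nr1i3 itself was at -0.04, 0.17, 0.02 and -0.30, spread around saline (mean -0.04, SE 0.0906, adjusted p = 0.754). Hnf4a was at -0.20, -0.18, 0.40 and 0.06 (mean 0.02, adjusted p = 0.881), again on both sides. Its mean turned to -0.48 and -0.41 with centring on calibration spots and on Actb, Gapdh and Ppia. The dim members ranged from -0.11 to 0.11 for Nr0b2, from -0.10 to 0.08 for Nr1h2 and from -0.23 to 0.19 for Nr3c1.

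**Figure D4:**
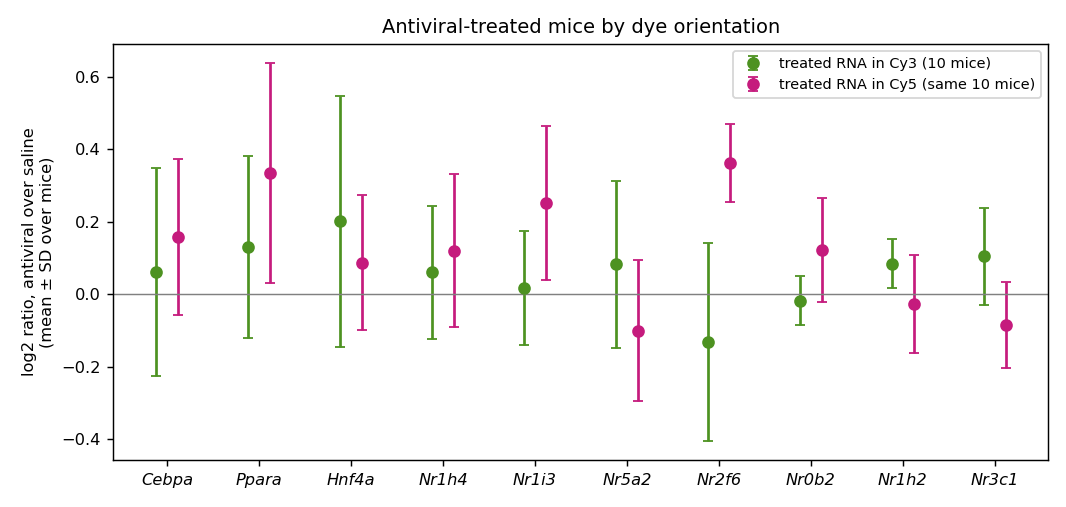
Mean log2 ratio of antiviral over saline RNA for each member, with the SD over the same 10 mice, by the dye that carried the treated RNA. Nr2f6 lies at -0.13 in Cy3 and 0.36 in Cy5, and the other members differ less between dyes.

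Scaling moved the level of all genes in the positive control. The median of all 120 probes for positive control minus antivirals was -0.03 after loess, -0.13 with arrays centred on their median, -0.82 with centring on calibration spots and -0.55 with centring on Actb, Gapdh and Ppia. The split of calls moved with it, from 24 higher and 20 lower after loess to 34 and 16, 11 and 80, and 17 and 73. For positive control over saline the calls were 26 higher and 24 lower after loess, and 31 and 10, 16 and 75, and 19 and 77 under the same 3 centrings. Ppara lay below the median of all probes by 0.40 after loess (-0.40) and by 0.68 (-0.68) under each of the others. Cebpa lay below it by 0.49 (-0.49) and by 0.18 (-0.18), and Nr1h4 by 0.23 (-0.23) and by 0.01 (-0.01). Nr5a2 and Nr2f6 lay above it under all 4 scalings.

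**Figure D5:**
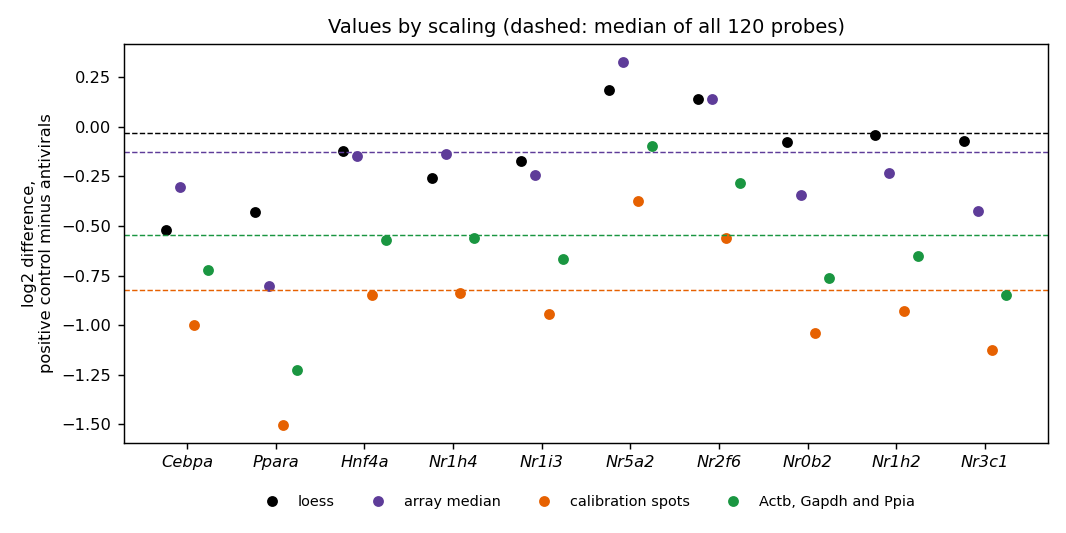
Log2 difference of positive control minus antivirals for each member under 4 scalings (colours), with the median of all 120 probes under each as a dashed line. Ppara lies below the dashed line of its scaling by 0.40 or 0.68, whereas Hnf4a and Nr1h4 lie near it without loess.

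Other genes of these pathways were read from lists of targets and partners. Of 19 measured nuclear receptors and coregulators outside the members, 2 rose and 2 fell in the positive control over saline and 0 changed under either antiviral. That is 4 of 19 called, where 41.7% of all probes were. With arrays centred on their median 0 rose and 2 fell, with calibration spots 0 and 18, and with Actb, Gapdh and Ppia 0 and 19, as the median of all probes fell. Nr1d2, a circadian repressor, was at -0.48 (SE 0.114, adjusted p = 0.00337 by limma) and Ppargc1a, the coactivator of Ppara and Hnf4a, at -0.38 (SE 0.0941, adjusted p = 0.00457). Nr5a1 was at 0.25 and Pparg at 0.18, the latter below background in both channels on all 4 arrays, and the saline channel was below background on all 4 for each of these genes. With arrays centred on their median Nr1d2 stayed lower (-0.96, adjusted p = 8.06e-06), whereas Ppargc1a turned to 0.06 and Pparg to -0.04, and Nr5a1 was at 0.03, none of these 3 past the threshold. With centring on calibration spots Nr5a1 turned to -0.47, Pparg to -0.54 and Ppargc1a was at -0.44. Against the antivirals Nr1d2 (-0.62) and Ppargc1a (-0.45) passed as well.

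Of 9 measured CAR targets, 5 rose, 2 fell and 2 did not pass in the positive control over saline (41.7% of all probes called), with a list median of 0.51, while Nr1i3 itself did not pass. Cyp2b10, a phenobarbital-inducible P450, was at 1.61 (SE 0.0938, adjusted p = 6.66e-09 by limma), Abcc3, an efflux transporter, at 1.18 and Cyp2b13 at 1.05. Alas1, the first enzyme of heme synthesis, was at -1.02. Cyp2b10 and Cyp2b13 are close paralogs whose probes can cross-hybridise. The saline channel was above background on 0 of 4 arrays for Cyp2b10 and Abcc3 and on 1 of 4 for Cyp2b13 and Alas1. With arrays centred on their median 6 rose and 1 fell, and each of these 4 genes kept its direction and passed. Under the antivirals 0 of 9 passed in either group.

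Of 8 measured targets of FXR, SHP and LRH-1, 1 rose and 3 fell in the positive control over saline, a share near the 41.7% of all probes called. Cyp8b1, which sets the share of cholic acid, was at 0.70 (SE 0.215, adjusted p = 0.0181 by limma) and Slc10a1, the bile acid uptake carrier, at -0.70 (SE 0.0679, adjusted p = 1.30e-06). Slco1a1 was at -0.32, below background in both channels on all 4 arrays, and Cyp7a1, the rate-limiting enzyme of bile acid synthesis, at -0.21. With both antivirals together Slc10a1 fell by 0.15 (-0.15, SE 0.0429, adjusted p = 0.0495), a call lost with each of the 3 other centrings. For the positive control with arrays centred on their median 2 rose and 1 fell, and Slc10a1 (-0.26, adjusted p = 0.125) and Cyp7a1 (-0.29, adjusted p = 0.0610) no longer passed. The 8 genes had a median of -0.13 in the positive control against 0.00 over all probes.

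Of 7 measured targets of HNF4 alpha and C/EBP alpha, 2 rose, 1 fell and 4 did not pass in the positive control over saline, a share near the 41.7% of all probes called. Cyp2e1, an ethanol-oxidising P450, was at -1.45 (SE 0.107, adjusted p = 5.73e-08 by limma), with its saline channel above background on 4 of 4 arrays, and Cyp2a12 was at 0.58. With arrays centred on their median 4 rose and 0 fell, and Cyp2e1 was at -0.28 (adjusted p = 0.266). Of 6 measured LXR targets, 2 fell, Abcg8, a sterol exporter subunit, at -0.38 and Cyp7a1, again a share near that of all probes. With arrays centred on their median 1 fell, and with calibration spots or Actb, Gapdh and Ppia 6 of 6 did. With both antivirals together Abcg8 was at 0.19 and Cyp2a12 at 0.18, each with an adjusted p of 0.0495. Both calls were lost with arrays centred on their median and with Actb, Gapdh and Ppia, and that of Cyp2a12 also with calibration spots. Of 3 measured genes of the glucocorticoid receptor list 1 fell, Alas1, and 0 of 10 listed Ppara targets were on the array. These lists share Cyp7a1, Cyp8b1 and Alas1.

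For each detected member, the 2 probes whose log2 ratios over the 14 mice were nearest, by root mean square difference, were named among 66 other detected probes. Nr1i3 was nearest to Abcg5 (0.175), Hnf4a to Abcc2 (0.198) and Nr1h4 to Scap (0.201), a sterol sensor. Ppara was nearest to Nr1i3 (0.241) and Scap (0.270), and Nr1i3 was the second nearest of Nr1h4 (0.223). Cebpa was nearest to a Gapdh probe (0.237) and to Nr1d2 (0.251), Nr5a2 to a Gapdh probe (0.131) and Nr2f6 to a Gapdh probe (0.195) and Apob (0.204). The second nearest of Hnf4a was Scarb1 (0.208) and that of Nr1i3 was Cyp2j5 (0.212). The median difference over all 66 probes was 0.371 to 0.468, depending on the member.

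The RNA carried the markers of its tissue. Of 10 listed hepatocyte markers 9 were on the array and 8 of them were above background on most arrays. In the positive control over saline 2 of the 9 rose and 3 fell (median -0.21), where 41.7% of all probes were called. With arrays centred on their median 4 rose and 0 fell, with a median of 0.23. Both antivirals together gave 0 higher and 2 lower, Cyp1a2 (-0.41, adjusted p = 0.0181 by limma) and Slc10a1, where 8.33% of all probes were called. Centred on array medians, 1 of the 9 was lower. The part of these shifts in the members' values was not tested. Slc10a2, a bile acid carrier of bile duct cells and the only 1 of 5 listed bile duct markers measured, was above background on 2 of 28 arrays, with the positive control at 0.44 (adjusted p = 0.000247 by limma). Its saline channel was above background on 0 of 4 positive-control arrays, and the call was lost with calibration spots (0.14) and with Actb, Gapdh and Ppia (0.21). Of 3 measured markers of steroid-producing glands 0 were above background on most arrays. Markers of macrophages, stellate cells, endothelium and leukocytes were not on the array, so their part in any member's value was not tested.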

How the data were processed

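Liver RNA and saline reference RNA were labelled with Cy3 or Cy5 and hybridised together, per the labels' protocols. The deposited scanner files hold the intensity of each spot and of its local background, not normalized, per the file headers. The authors also deposited a series table of log2 ratios. Set against the scanner values its columns run as treated over saline on a log2 scale, and their medians ran from -1.54 to 0.94, so they are not centred. The authors' normalization of them was not stated.

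In limma 3.58.1 (R 4.3.3), normexp with an offset of 50 corrected the intensities, and loess (span 0.3, control spots at weight 0) normalized each array. The 3 spots of a probe were averaged, ratios were turned to treated over saline, and both dye-exchanged arrays of an antiviral mouse were averaged. Those pairs gave a dye effect per probe (SD 0.137), which was taken off the positive-control ratios, all from 1 orientation. The error of this estimate does not enter the SEs or p-values of the positive control. Group means of 14 mice were compared with eBayes (residual df 11, prior df 3.36) and p-values were adjusted by Benjamini-Hochberg over 120 probes. In 10 simulated data sets of 120 probes, the fit of positive control minus antivirals recovered 197 of 200 changes of 1 log2 unit, larger than any member's change in that comparison as reported, with 14 false calls. The number of arrays limits the precision.

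Groups follow the sample titles. The pool arrays entered no test. Deviations of same-numbered mice of the antiviral groups correlated at r from -0.21 to 0.27, and the reported fit used no pairing by number. As even 2 arrays of the same mouse had a median r of 0.27, this check cannot exclude a shared batch behind the numbers. Gene names follow the platform annotation, updated through RefSeq (GRCm38.p6), and 110 probes had one. The members and lists were chosen with earlier results of these data known. All 10 members are named, with the 2 nearest probes of each detected member, fewer where a probe has no annotated gene, and up to 4 called genes of each list with the largest change. Figures used Python 3.11.15 with matplotlib 3.10.9.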

Additional observations from a re-analysis of the deposited data

Results flagged for a closer look

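In Nr1h4, tenofovir mouse 3 lay apart from its group at -0.31, where the other 4 mice lay between 0.16 and 0.30. In Nr0b2, tenofovir mouse 5 lay apart at 0.18, where the others lay between -0.02 and 0.03, from signals below background. These were 2 of 30 groups of mice examined for a value far from the others, and chance alone gives about 1 in 20. Without tenofovir mouse 3, the Nr1h4 difference of positive control minus antivirals was -0.31 and passed (adjusted p = 0.0127 by limma). As that mouse had the lowest Nr1h4 value of the antiviral mice, leaving it out widens this difference by construction. With each of the 14 mice left out in turn Nr1h4 passed in 2 fits, with an adjusted p of up to 0.273 in the others.

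Cebpa and Ppara differed between the positive control and the antivirals, by -0.52 (adjusted p = 0.0159 by limma) and -0.43 (adjusted p = 0.0384).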

How the results depend on the processing

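The count of detected members was 7 under 2 other background rules and with each mouse left out. Of 1546 single-member values recomputed, 63 gained a call with the same sign and 23 lost one. The sign turned in 122, of which 80 moved by less than the spread between mice, 36 moved further without a call on either side and 6 had a call on 1 side. With centring on calibration spots the members called were 1 for tenofovir, 6 for both antivirals, 8 for positive control over saline and 9 for positive control minus antivirals. With centring on Actb, Gapdh and Ppia the members called in the last 2 comparisons were 8 and 8, with the calls over all probes given above. Hnf4a in the positive control over saline turned to -0.48 and -0.41 under these centrings, Nr2f6 to -0.21 and -0.14, and Nr2f6 against the antivirals to -0.56 with calibration spots, where the median of all probes fell with them. With medians of spots 1 member was called in the positive control over saline, with arrays as units and the mouse as a random block 1, with its mice fitted alone 0, and 0 by the series table, where 3 members had values. The random block and the series table each gave 2 for both antivirals, and the series table gave 1 for tenofovir and 1 for adefovir minus tenofovir. Arrays with treated RNA in Cy3 gave 1 for tenofovir, Nr1h2, which turned to 0.14. Those with treated RNA in Cy5 gave 1 for adefovir, 2 for tenofovir and 3 for both. Positive control minus antivirals had 5 without the dye correction and 5 in the Cy3 channel alone, where 48 of 120 probes were called. The counts of the other settings stand without the share of all probes and are not read as results about the members. Leaving out each mouse gave 0 to 3 for positive control over saline and 0 to 4 for positive control minus antivirals. The causes were not tested, apart from the shift of all probes by centring. With the replicate block 0 members were called for adefovir minus tenofovir and 2 for positive control minus antivirals (Cebpa -0.56, Ppara -0.39), and it changed no call in these comparisons, for which alone it was run. A fit on only the groups compared equals the one reported for positive control minus antivirals and was not run. Signal over background limits Nr0b2, Nr1h2 and Nr3c1 most, then Nr5a2, Nr2f6 and Ppara, and the saline channel limits every value of the positive control.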
